A study of Homo sapiens with 8 samples.

Results

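LMO7, PDLIM1, PDLIM5, PDLIM7, FHL1, FHL2, FHL3, ZYX, LPP and TGFB1I1 encode cytoplasmic LIM proteins, and 9 of these 10 genes were measured here among 22411 genes. Each array value belongs to a transcript cluster, a set of probes for a single locus. A gene was read from the cluster that carried its symbol alone, and each of the 9 had 1 such cluster. FHL1 had none and was not analysed here. LMO7 was selected on its measured fall in the comparison described here, so its values are given as a description with no test, and the other 8 genes were chosen by protein family.

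The cells were SK-N-MC, an established Ewing sarcoma line, and all 8 cultures came from this single line. Of these, 4 received combined siRNAs to YAP1 and TAZ, the product of WWTR1, and 4 received a non-targeting control siRNA, in both cases at 10 nM with the Viromer Blue reagent. All were grown in the same serum-supplemented medium and total RNA was collected at 72 h. Because the siRNAs were given as a mix, effects of losing YAP1 and of losing TAZ cannot be told apart.

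A LIM domain is a zinc-binding double finger that binds other proteins rather than DNA. The proteins described here carry 1 or more of them and sit at actin filaments, focal adhesions and cell junctions, from where several also enter the nucleus and act with transcription factors. Some LIM proteins, zyxin among them, gather on actin filaments under mechanical strain. YAP1 and TAZ are co-activators that enter the nucleus when actin is under tension and act through the DNA-binding TEAD proteins, and a further strain-sensitive route runs through the transcription factor SRF and its actin-regulated partners MRTFA and MRTFB. FHL2 and ZYX are known SRF targets.

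The values are log2 array signals, so a difference of 1 is a doubling, and the number of arrays limits their precision. YAP1 averaged 6.38 ± 0.070 with YAP1/TAZ siRNA and 7.68 ± 0.039 with control siRNA, and WWTR1 averaged 5.86 ± 0.080 and 6.48 ± 0.084 in the same order (SD, n = 4 each). Both siRNA targets were lower on all 4 YAP1/TAZ siRNA arrays than on any control array, with limma adjusted p of 4.73e-05 and 0.00898. YAP1/TAZ siRNA replicate 2 and control replicate 4 lay apart from the other 6 arrays, with loadings of 0.57 and 0.59 on the first principal component against −0.31 to 0.071, and values without either or both are given beside several results below. Of 8 Ewing sarcoma markers, 7 were measured, with gene means between 9.38 and 13.4. LIPI alone of them passed limma, where 0.214% of all genes did, and it fell (difference −0.63, limma adjusted p = 0.0136). Groups did not overlap in 4 of the 7, against 6.22% of all genes. These were LIPI and, higher with YAP1/TAZ siRNA, PRKCB, PPP1R1A and BCL11B (differences 0.46, 0.32 and 0.22). Of the 7 differences, 5 were above 0 and 2 below, with a median of 0.22, beside 0.01 over all genes. Gene means of 10 muscle, 6 epithelial and 4 blood markers lay between 3.54 and 5.41, and those of 6 fibroblast markers between 4.87 and 7.91. Summed as an array mean, the muscle markers ran from 4.38 to 4.56 with YAP1/TAZ siRNA and from 4.48 to 4.52 with control siRNA. The fibroblast markers ran from 6.65 to 6.88 with YAP1/TAZ siRNA and from 6.83 to 7.02 with control siRNA, and the part of either list in the results below was not tested.

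LMO7 was the gene of this set with a large change. It is a LIM protein with a calponin homology and a PDZ domain, which in rodents links nectin and cadherin junctions through afadin and alpha-actinin and also binds emerin at the nuclear envelope. Its log2 signal was 7.53, 7.44, 7.65 and 7.51 on YAP1/TAZ siRNA replicates 1 to 4, and 8.43, 8.30, 8.15 and 8.53 on control replicates 1 to 4. Every YAP1/TAZ siRNA array was below every control array, and the gap between the nearest arrays of the groups, 0.50, was wider than the range within either group (0.21 with YAP1/TAZ siRNA and 0.38 with control siRNA). The means were 7.53 ± 0.087 with YAP1/TAZ siRNA and 8.35 ± 0.16 with control siRNA (SD, n = 4 each), a difference of −0.82, or 43.4% lower on the linear scale. The lowest YAP1/TAZ siRNA value and the highest control value were both on the arrays that lay apart, and the difference without them was −0.73. Leaving out any 1 array gave differences from −0.89 to −0.76. In total RNA from a culture, fewer cells with a transcript and less of it per cell cannot be told apart.

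**Figure D1:**
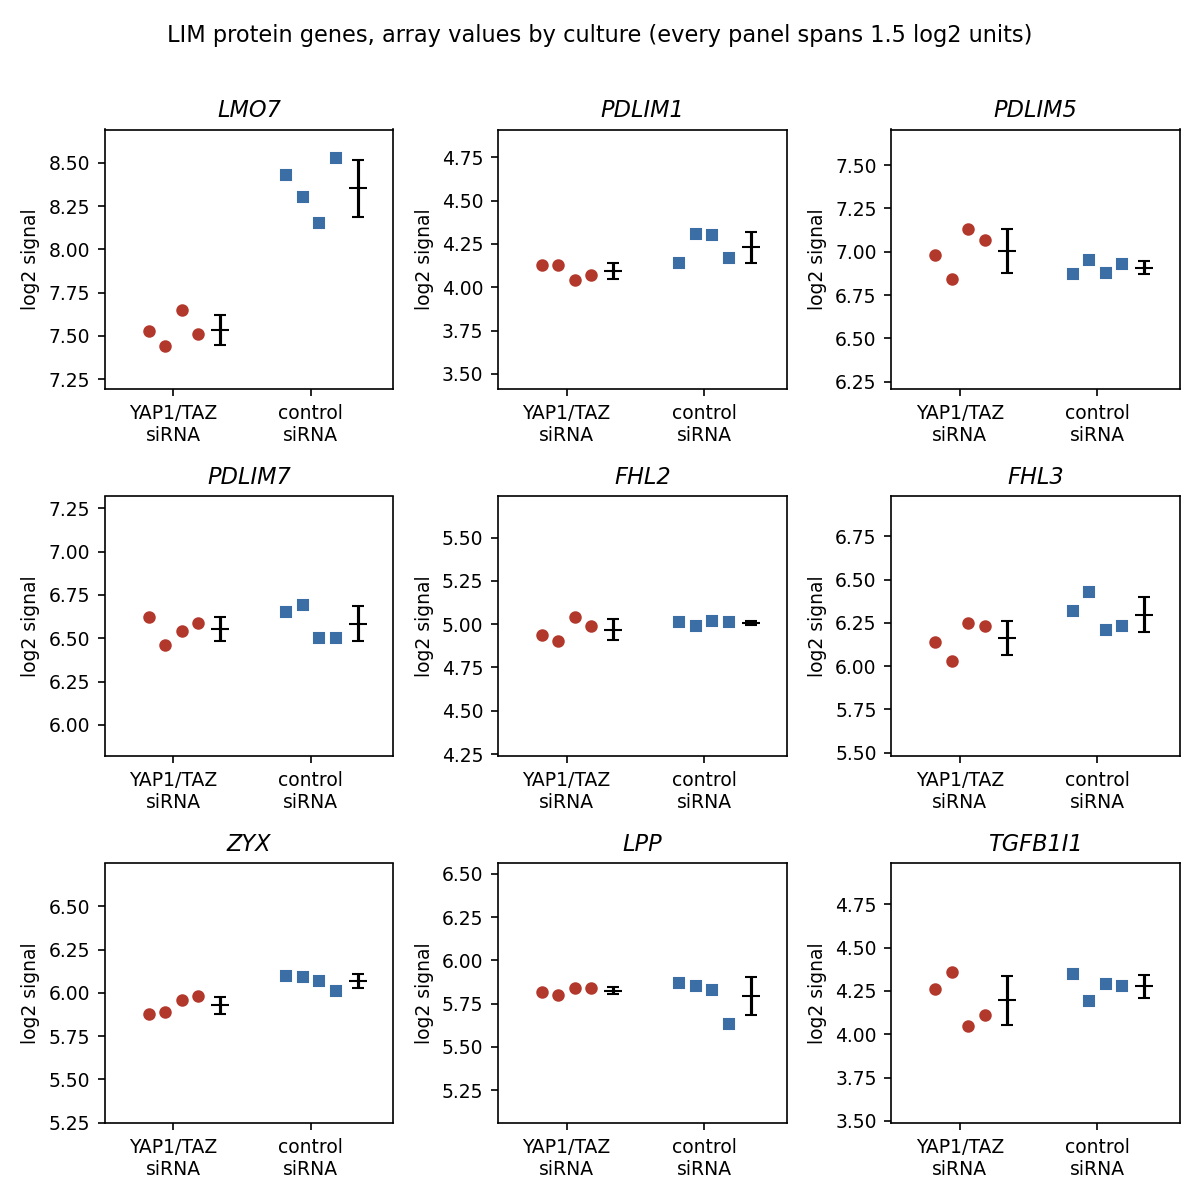
Log2 array signal (vertical axis) of the 9 measured LIM protein genes on each YAP1/TAZ siRNA array (red circles, left) and each control siRNA array (blue squares, right), with the mean and SD of each group in black (n = 4). Every panel spans the same number of log2 units. The groups are 0.50 apart for LMO7, while for PDLIM1 and ZYX they are separated by 0.01 and 0.03 and for the other genes they overlap.

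None of the other 8 genes passed limma at an adjusted p under 0.05, where 0.214% of all genes did. At an unadjusted p under 0.05 there were 2 of the 8, ZYX and PDLIM1, both lower, against 10.3% of all genes in either direction and 3.19% lower. In those 2 genes every YAP1/TAZ siRNA array was below every control array, which was so for 2.03% of all genes, while in 6.22% the groups did not overlap in either direction. The counts rest on few genes, and whether they set the group apart from the rest of the array was not tested. Of the 8 differences, 6 were below 0 and 2 above, with a median of −0.06, beside a median of 0.01 over all genes, of which 47.0% were below 0. Their median absolute difference was 0.09, against 0.07 over all genes. The 95% intervals of the 8 differences all lay between −0.30 and 0.25. The LMO7 difference of −0.82 was outside each, but LMO7 was picked for its fall. PDLIM1, FHL2 and TGFB1I1 had signals under the median gene mean, at an unknown distance from background. A signal near background could not show such a fall. Without the arrays that lay apart, again 0 of the 8 passed, where 0.839% of all genes did.

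The PDLIM proteins join a PDZ domain, which binds alpha-actinin on actin filaments, to LIM domains that hold kinases and other partners. PDLIM1, also called CLP36, read 4.13, 4.13, 4.04 and 4.07 on the YAP1/TAZ siRNA arrays and 4.14, 4.31, 4.30 and 4.17 on the control arrays. The groups were separated by 0.01, the last decimal of the deposited values. Its difference was −0.14 (SE 0.058, 95% interval −0.27 to −0.0054, limma adjusted p = 0.459). The signal of PDLIM1 was under the median gene mean, and how far it lay above background is not known here.

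PDLIM5, or ENH, which brings protein kinase C isoforms to the cytoskeleton, was the one of these 3 PDLIM genes with a higher mean. It read 6.98, 6.84, 7.13 and 7.07 on the YAP1/TAZ siRNA arrays and 6.87, 6.95, 6.88 and 6.93 on the control arrays. The groups overlapped through YAP1/TAZ siRNA replicate 2 alone, one of the arrays that lay apart, which was 0.22 below the mean of the other 3. The difference was 0.10 (SE 0.069, 95% interval −0.058 to 0.25, limma adjusted p = 0.714), and 0.16 without the arrays that lay apart (limma adjusted p = 0.236). It was 0.056 without YAP1/TAZ siRNA replicate 3.

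PDLIM7, or Enigma, known for promoting bone formation, read 6.62, 6.46, 6.54 and 6.59 on the YAP1/TAZ siRNA arrays and 6.65, 6.69, 6.50 and 6.50 on the control arrays. Its groups overlapped over most of their range. The difference was −0.03 (SE 0.065, 95% interval −0.18 to 0.12, limma adjusted p = 0.927), and with 1 array left out it ran from −0.061 (without control replicate 3 or 4) to 0.0025 (without control replicate 2).

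The FHL proteins consist of LIM domains alone and act as adaptors at the sarcomere, at adhesions and in the nucleus. FHL2, a co-activator of the androgen receptor, read 4.94, 4.90, 5.04 and 4.99 on the YAP1/TAZ siRNA arrays and 5.01, 4.99, 5.02 and 5.01 on the control arrays. The control arrays spanned 0.03, the narrowest range of any control group in the set, and lay inside the range of the YAP1/TAZ siRNA arrays. The difference was −0.04 (SE 0.049, 95% interval −0.15 to 0.071, limma adjusted p = 0.864). It was −0.017 without the arrays that lay apart, and −0.018 without YAP1/TAZ siRNA replicate 2 alone against −0.064 without YAP1/TAZ siRNA replicate 3.

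FHL3, a FHL protein of skeletal muscle that can bind actin, read 6.14, 6.03, 6.25 and 6.23 on the YAP1/TAZ siRNA arrays and 6.32, 6.43, 6.21 and 6.23 on the control arrays. YAP1/TAZ siRNA replicates 3 and 4 lay inside the control range, and replicates 1 and 2 lay below it. The difference was −0.14 (SE 0.072, 95% interval −0.30 to 0.028, limma adjusted p = 0.580), with the interval reaching furthest below 0 of the 8 genes.

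Zyxin and LPP are close relatives that anchor Ena/VASP proteins at focal adhesions and stress fibres. ZYX read 5.88, 5.89, 5.96 and 5.98 on the YAP1/TAZ siRNA arrays and 6.10, 6.09, 6.07 and 6.01 on the control arrays. The groups did not overlap, with 0.03 between the nearest arrays. ZYX had the smallest p of the 8 genes, with a difference of −0.14 (SE 0.049, 95% interval −0.25 to −0.028, limma adjusted p = 0.362), or 9.25% lower on the linear scale. Across 17 alternative settings its difference stayed between −0.16 and −0.12 and its adjusted p between 0.125 and 0.660.

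LPP, named for a gene rearranged in lipomas, read 5.82, 5.80, 5.84 and 5.84 on the YAP1/TAZ siRNA arrays and 5.87, 5.85, 5.83 and 5.63 on the control arrays. The YAP1/TAZ siRNA arrays lay within 0.04 of each other, and among the controls replicate 4, an array that lay apart, was 0.22 below the mean of the other 3. The difference was 0.03 with all arrays (SE 0.062, 95% interval −0.11 to 0.17, limma adjusted p = 0.929) and −0.025 without control replicate 4, so 1 array set its sign.

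TGFB1I1, or Hic-5, a relative of paxillin induced by TGF-beta, read 4.26, 4.36, 4.05 and 4.11 on the YAP1/TAZ siRNA arrays and 4.35, 4.19, 4.29 and 4.28 on the control arrays. YAP1/TAZ siRNA replicates 1 and 2 lay within or just above the control range, and replicates 3 and 4 below it. The difference was −0.08 (SE 0.077, 95% interval −0.26 to 0.092, limma adjusted p = 0.807). It was −0.14 without the arrays that lay apart (limma adjusted p = 0.409), and with 1 array left out it ran from −0.14 (without YAP1/TAZ siRNA replicate 2) to −0.03 (without YAP1/TAZ siRNA replicate 3). TGFB1I1 and FHL2, like PDLIM1, had signals under the median gene mean of 5.03.

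**Figure D2:**
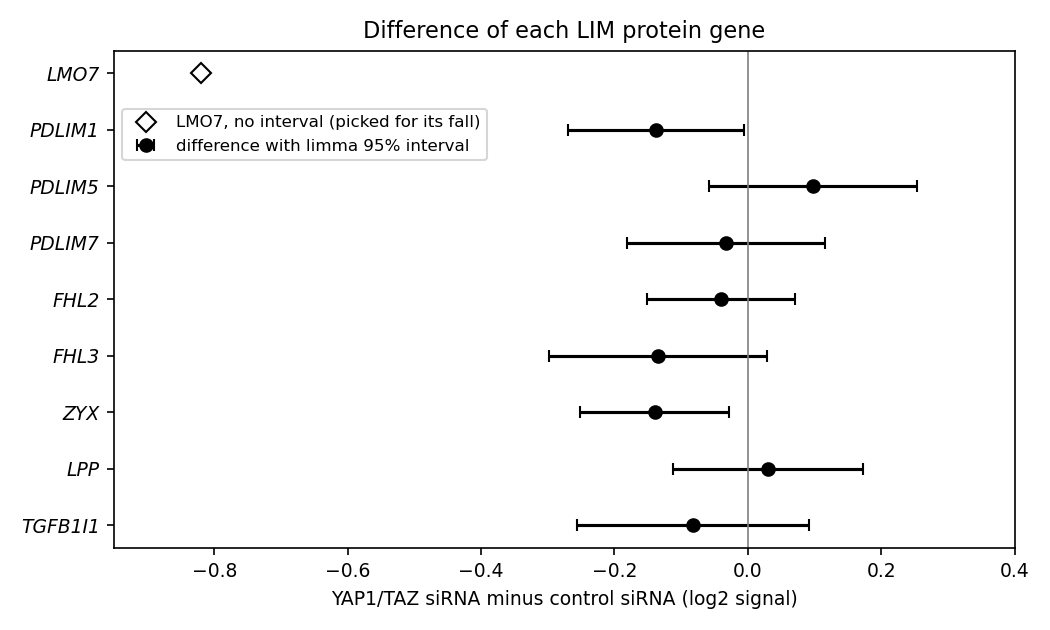
Difference in log2 signal, YAP1/TAZ siRNA minus control siRNA (horizontal axis), for each measured LIM protein gene, with the limma 95% interval for the 8 genes that were tested. LMO7, at −0.82, is drawn without an interval because it was picked for its fall, and the 8 intervals lie between −0.30 and 0.25.

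From culture to culture the genes varied together only in part. After each group's mean was taken out, 22 of 36 pairs of the 9 genes had a positive Pearson correlation over the 8 arrays, with a median of 0.11. PDLIM5 and FHL2 varied most alike (r = 0.86) and PDLIM5 and TGFB1I1 most oppositely (r = −0.96). These are correlations of small deviations that share the same 8 arrays, including those that lay apart. On YAP1/TAZ siRNA replicate 2, PDLIM5 and FHL3 were 0.22 and 0.18 below the mean of the other YAP1/TAZ siRNA arrays and TGFB1I1 was 0.22 above it. With LMO7, ZYX had r = 0.83 over the 8 arrays but −0.09 with group means taken out, and PDLIM1 had 0.58 and −0.82 by the same measures.

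Beyond the set, 1 further LIM protein gene fell. Of 40 measured LIM proteins of actin and adhesions outside the set, AJUBA fell, 0 rose and 39 did not pass, with a median difference of −0.02. Over all genes 0.214% passed. At an unadjusted limma p under 0.05 there were 6 of the 40, against 10.3% of all genes. AJUBA, of the same subfamily as zyxin and an inhibitor of the LATS kinases that restrain YAP1, read 7.50, 7.14, 7.51 and 7.35 on the YAP1/TAZ siRNA arrays and 8.59, 8.47, 8.65 and 8.12 on the control arrays. Its groups were 0.61 apart. The difference was −1.08 (SE 0.13, limma adjusted p = 0.0184), and with any single array dropped it passed limma in 2 of 8 cases, with −1.12 and an adjusted p of 0.00526 without the arrays that lay apart. The next 4 genes by p did not pass, with limma adjusted p from 0.336 to 0.414. They were CRIP1, a small LIM protein, with a difference of −0.22, LIMK1, a kinase that inactivates cofilin, with 0.18, LIMS1, which ties integrin-linked kinase to adhesions, with 0.18, and NEBL, an actin-binding relative of nebulin, with −0.13.

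LIM proteins of the nucleus act in transcription and share little with LMO7 beyond the domain, despite the LMO name. The 16 genes had a median difference of −0.01, and 0 passed limma. At an unadjusted limma p under 0.05 there was 1 of the 16, against 10.3% of all genes. That 1 was LMO3, a LIM-only protein studied in neuroblastoma, which read 6.11 ± 0.057 with YAP1/TAZ siRNA and 5.94 ± 0.052 with control siRNA (SD, n = 4 each; difference 0.17, SE 0.052, limma adjusted p = 0.306). LHX9, LMO1, LMO2 and LHX2 had differences of 0.16, −0.10, −0.08 and −0.09. Without control replicate 4, one of the arrays that lay apart, LHX9 was at 0.10 and LHX2 at −0.02, and without control replicate 3 LMO2 was at −0.03. Without both arrays that lay apart LHX2 was at −0.03.

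**Figure D3:**
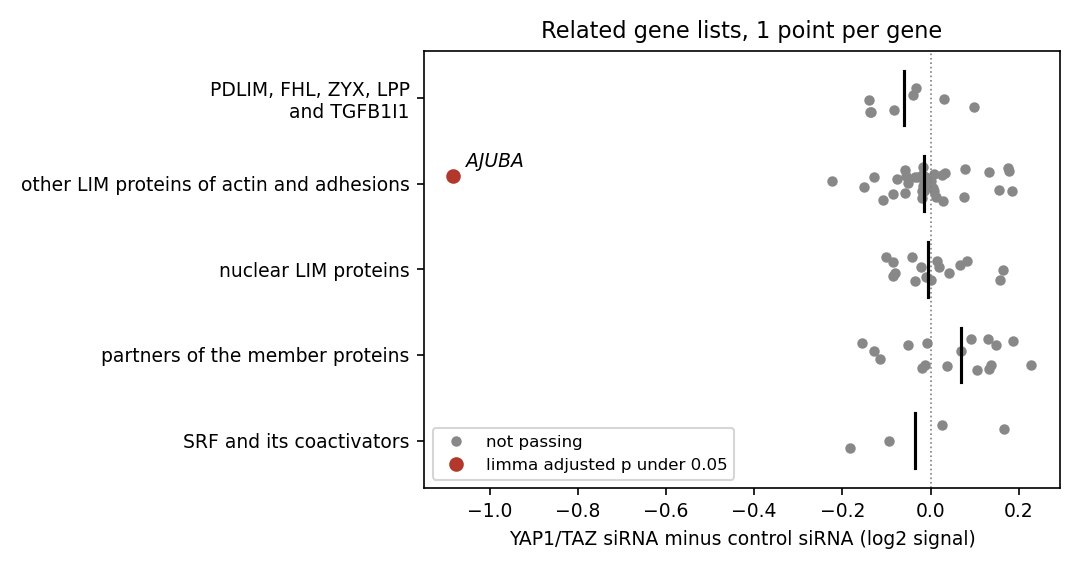
Difference in log2 signal, YAP1/TAZ siRNA minus control siRNA (horizontal axis), for the 8 tested LIM protein genes and for 4 related lists, with 1 point per gene and the list median as a black line. AJUBA, at −1.08, is the gene that passed limma at an adjusted p under 0.05, and the medians lie between −0.06 and 0.07.

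Among 17 measured genes for proteins that bind the LIM proteins described, the median difference was 0.07 (7 below 0 and 10 above), and 0 passed limma. At an unadjusted limma p under 0.05 there was 1 of the 17, against 10.3% of all genes. ACTN2, the alpha-actinin of muscle, averaged 7.27 ± 0.11 with YAP1/TAZ siRNA and 7.04 ± 0.078 with control siRNA (SD, n = 4 each; difference 0.23, SE 0.069, limma adjusted p = 0.271). ACTN1, its non-muscle counterpart, differed by 0.19, CTNNA1, the alpha-catenin of cell junctions, by 0.14, EMD, the nuclear envelope protein emerin that LMO7 binds, by 0.13, and ITGB1, the beta 1 integrin, by −0.16, with limma adjusted p from 0.502 to 0.619. The ITGB1 difference rested largely on control replicate 4, being −0.07 without it, −0.05 without both arrays that lay apart and −0.06 as the mean of its clusters. SRF averaged 7.77 ± 0.061 with YAP1/TAZ siRNA and 7.95 ± 0.11 with control siRNA (SD, n = 4 each; difference −0.18, SE 0.068, limma adjusted p = 0.384). Its co-activators MRTFA, MRTFB and MYOCD differed by −0.10, 0.17 and 0.03, with MRTFA at −0.04 without YAP1/TAZ siRNA replicate 2 and −0.15 without control replicate 4, and MRTFB at 0.11 without control replicate 3. So 0 of these 4 genes passed limma and SRF alone had an unadjusted p under 0.05.

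The genes most like LMO7 over the arrays were found among 9504 others, protein-coding and above the median gene mean. POGLUT3, a protein O-glucosyltransferase, had r = 0.98, CCN1, a secreted matricellular protein and known YAP target, 0.98, LOX, an enzyme that hardens the matrix by cross-linking collagen, 0.98, WWTR1 itself 0.97, and MAT2B, a subunit of methionine adenosyltransferase, 0.97, each over 8 arrays. The genes were selected by this correlation, which holds both the gap between the groups that led to the choice of LMO7 and the deviations within them, so all their values are given as a description without a test. They were −0.28 for POGLUT3, −1.05 for CCN1, −0.61 for LOX, −0.62 for WWTR1 and −0.68 for MAT2B. With group means taken out, r with LMO7 was 0.81 for LOX, 0.77 for POGLUT3, 0.63 for CCN1, 0.58 for WWTR1 and 0.46 for MAT2B, values that the selection itself raised. LOX shared with LMO7 a control replicate 3 that was the lowest of its group, 8.44 against 8.71 to 8.75 on the other controls. Its YAP1/TAZ siRNA arrays read 8.11, 7.96, 8.20 and 7.94, with replicate 3 the highest, as for LMO7.

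**Figure D4:**
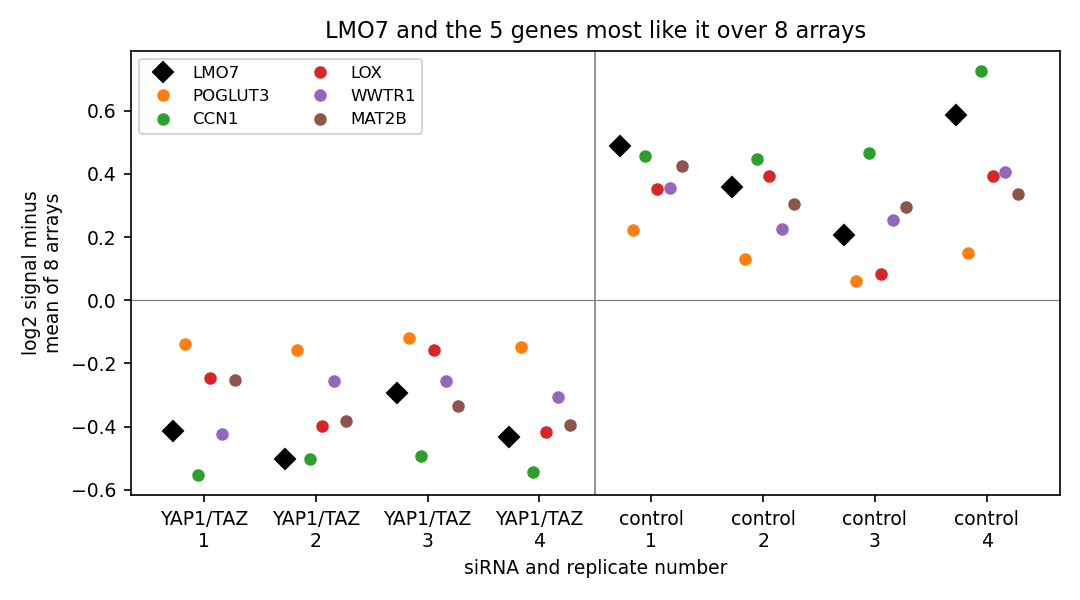
Log2 signal of LMO7 (black diamonds) and the 5 genes most like it (circles) on each array, minus each gene's own mean over the 8 arrays, with YAP1/TAZ siRNA arrays on the left and control arrays on the right. All 6 genes are below 0 on every YAP1/TAZ siRNA array and above 0 on every control array, with CCN1 and LMO7 spread widest.

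None of the 4 genes named next, which lie beside LMO7 on its chromosome, passed limma. By RefSeq gene order, LMO7-AS1 is antisense to the start of LMO7 and averaged 3.52 ± 0.12 with YAP1/TAZ siRNA and 3.61 ± 0.21 with control siRNA (SD, n = 4 each). UCHL3, the nearest protein-coding gene on one side and encoding a ubiquitin hydrolase, averaged 10.75 ± 0.090 and 10.81 ± 0.16 in the same order. KCTD12, the nearest protein-coding gene on the other side, had a difference of 0.13 (SE 0.13), and LMO7DN, a noncoding RNA gene next to LMO7, one of −0.16 (SE 0.085). The limma adjusted p of these 4 genes ran from 0.571 to 0.878.

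Start-site windows of the 9 genes were searched for letters known to be bound by the factors named above, as a description of sequence and not of binding. RefSeq lists 24 windows for them, several overlapping, each lying mostly before a start site. A match shared by overlapping windows was counted in each, so the counts below exceed the separate sites in FHL2, LPP and TGFB1I1. All 34943 windows were counted in the same way. The core of the TEAD motif, GGAATG, on either strand, was in 4 of the 24, in windows of LMO7, FHL2 and LPP, and in 14.0% of all 34943 windows. The SRF motif, the CArG box, was in 5 of the 24, in windows of FHL2, LPP and TGFB1I1, and in 1.30% of all windows. A near match, with exactly 1 departure inside the box and so not counting complete boxes, was in 4 of the 24. These were windows of ZYX, LPP and TGFB1I1, and 6.95% of all windows had one. The motif of the AP-1 transcription factors, TGANTCA with any base at N, was searched as well. It was in 3 of the 24, all of LPP, and in 7.72% of all windows. The stretches below, all 60 bases from GRCh38.p14, show where a match lies (in capitals). They give the TEAD core of LMO7 and a CArG box or near match of FHL2, TGFB1I1, LPP and ZYX. The TEAD cores of FHL2 and LPP, genes whose groups overlapped, are not printed. Groups also overlapped for TGFB1I1 and were 0.03 apart for ZYX. Whether any of these letters bears on the differences was not tested.
LMO7, TEAD core, chr13:75620319-75620378, plus strand: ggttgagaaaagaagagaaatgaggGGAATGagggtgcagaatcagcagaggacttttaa
FHL2, CArG box, chr2:105399076-105399135, minus strand: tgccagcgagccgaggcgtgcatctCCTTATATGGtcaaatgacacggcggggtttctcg
TGFB1I1, CArG box, chr16:31473129-31473188, plus strand: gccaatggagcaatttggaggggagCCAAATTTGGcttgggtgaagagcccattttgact
LPP, CArG box, chr3:188212504-188212563, plus strand: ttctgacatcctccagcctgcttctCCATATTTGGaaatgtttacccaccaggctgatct
ZYX, near CArG box, chr7:143381214-143381273, plus strand: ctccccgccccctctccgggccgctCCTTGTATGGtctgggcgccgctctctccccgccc
The LMO7 match lies 90 bases before the most upstream of its 5 listed starts, and no GGAATG was found in the other LMO7 windows. Of the printed CArG boxes, that of FHL2 lies 59, that of TGFB1I1 51 and that of LPP 183 bases before the start site inside the same window. The ZYX near match lies 106 bases before its start site. A further FHL2 CArG box, not printed, lies 101 and 85 bases before the starts of overlapping windows. Which of these starts SK-N-MC cells use is not known from these arrays, which give 1 value per locus.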

How the data were processed

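Whole-transcript arrays measured total RNA from 8 cultures. The deposited log2 signals hold 1 value per transcript cluster. The submitters' processing notes name Transcriptome Analysis Console. The sources used here do not give its version, the summary algorithm, the normalization between arrays or the signal over background. The log2 scale was read from the range (2.27 to 19.93). Of 67528 clusters, 23781 had 1 gene symbol, and symbols were updated through RefSeq (GRCh38.p14). For genes with several clusters the highest mean over 8 arrays was used, leaving 22411 genes.

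Differences were fitted on all genes with limma 3.58.1 in R 4.3.3 (lmFit, eBayes, no covariate), with Benjamini-Hochberg adjustment and a threshold of 0.05. The fit was tested on simulated data with independent noise for each gene and array. Those data held no arrays that lay apart, so the test does not cover that feature of the real arrays. Groups came from sample titles. Nothing in the labels shows cultures from separate experiments, so p-values measure only the spread between these samples, which may be technical.

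The members, gene lists, alternatives and motifs were chosen with earlier results of these data known. Named genes were the members, YAP1, WWTR1, the 5 smallest p-values of each list, and the 5 genes most and 3 least like LMO7. Genes beside LMO7 and LPP were added by position, and the near CArG match after the windows were seen.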

Additional observations from a re-analysis of the deposited data

Results flagged for a closer look

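Among 22 groups of 4 arrays (the 9 measured LIM protein genes, YAP1 and WWTR1, in each siRNA group), 2 had an array far from the other 3 of its group, and chance alone flags about 1 in 20 groups. LPP read 5.63 on control replicate 4, against 5.83 to 5.87 on the other controls. For YAP1, replicate 1 of the YAP1/TAZ siRNA cultures was lowest at 6.27, and the remaining 3 ran from 6.40 to 6.42. Control replicate 4 is one of the arrays that lay apart over all genes, and YAP1/TAZ siRNA replicate 1 is not.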

How the results depend on the processing

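Under all 17 alternatives, 0 of the tested LIM protein genes passed (8 genes, or 5 when genes at or below the median level were left out), their median difference stayed between −0.08 and −0.03, and that of LMO7 between −0.89 and −0.73. Signs of small differences turned for LPP (−0.025 without control replicate 4, within −0.025 to 0.055 when 1 array was left out, −0.017 without the arrays that lay apart, −0.0018 with array weights), PDLIM7 (0.0025 without control replicate 2, within −0.061 to 0.0025) and MYOCD (−0.015 without control replicate 2, within −0.015 to 0.045). The count of all genes called, 48 (30 rose, 18 fell), was less stable. It was 12 to 166 when 1 array was left out, lowest without control replicate 1 and highest without YAP1/TAZ siRNA replicate 2. It was 188 without both arrays that lay apart, 559 with array weights, 82 above the median level, 25 with arrays centred on their median (13 rose, 12 fell) and 72 after quantile normalization (37 rose, 35 fell); the cause was not tested. With the replicate number as a block it was 3, and of the 77 related genes 0 passed, against 1, AJUBA, without the block. Leaving out 1 array gave 0 to 1, with AJUBA lost without control replicate 1, 2 or 3 and without YAP1/TAZ siRNA replicate 1, 3 or 4. Deviations of same-numbered arrays correlated at 0.37, −0.47, 0.016 and −0.39, and those of YAP1/TAZ siRNA replicate 2 and control replicate 4 at 0.61. The labels do not say whether the numbers pair the cultures. These correlations cannot decide it, since they include the arrays that lay apart. WWTR1 had a limma adjusted p of 0.0515 without control replicate 1 and 0.147 with the replicate block. Signal over background is unknown, which limits PDLIM1, FHL2 and TGFB1I1 most.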

Other observations

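Several small loci lie inside or against LPP in RefSeq gene order and had array clusters of their own. FLJ42393, an uncharacterised RNA gene, averaged 4.41 ± 0.18 with YAP1/TAZ siRNA and 4.11 ± 0.15 with control siRNA (SD, n = 4 each; difference 0.30, SE 0.11, limma adjusted p = 0.367). MIR28, a microRNA gene within LPP, averaged 3.81 ± 0.22 and 3.57 ± 0.085 in the same order (difference 0.23, SE 0.11, limma adjusted p = 0.499). LPP-AS2 and LPP-AS1 differed by −0.16 and 0.01. BCL6, the transcriptional repressor gene nearest to LPP on one side, averaged 11.55 ± 0.17 and 11.34 ± 0.21 (difference 0.20, SE 0.12, limma adjusted p = 0.621), and none of these 5 passed.

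The genes that ran most opposite to LMO7 over the 8 arrays were SNAPC5 (r = −0.99), C6orf120 (r = −0.98) and PSRC1 (r = −0.97). SNAPC5 is a subunit of the complex that activates small nuclear RNA genes, and PSRC1 is a spindle-associated protein. SNAPC5 read 7.35, 7.39, 7.32 and 7.36 on the YAP1/TAZ siRNA arrays and 7.14, 7.17, 7.25 and 7.10 on the control arrays. Its order within each group was the exact reverse of that of LMO7 (r = −0.98 after group means were taken out), which follows in part from its selection as the most negative of 9504 correlations over these same 8 arrays. The differences were 0.19 for SNAPC5, 0.25 for C6orf120 and 0.13 for PSRC1, given, like the correlations, as a description without a test.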
